A study of Rattus norvegicus with 6 samples.

Results

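The mitochondrial carrier family, whose genes carry Slc25a symbols, was examined in neonatal rat ventricular cardiomyocytes. The members were all rows of the deposited mRNA table whose RefSeq transcript belongs to a rat gene with a symbol starting Slc25a, and 36 of 20734 rows met this, representing 35 genes. A further 18 protein-coding Slc25a genes of the RefSeq table, among them Slc25a5, Slc25a12 and Slc25a13, matched no row by accession and were not analysed here. Rows with Ensembl identifiers, 5977 in all, could not be named. The treated group was 3 cultures given 10 µM isoproterenol, a beta-adrenergic agonist used to model hypertrophy, for 24 h, and the control group was 3 cultures left without it. Per the labels, all cells came from newborn Sprague-Dawley rats aged 1 to 3 days, cells that stuck to an uncoated flask, a step meant to remove fibroblasts, were discarded, and treatment took place in serum-free medium. The labels also mention passages and the series text a transfection, neither of which is part of the described culture of primary cells. No label ties a replicate to a litter or culture day, so the p-values measure only the spread between these samples, which may be technical.

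Slc25 proteins exchange solutes across the inner mitochondrial membrane, apart from a few that sit in the outer membrane or in peroxisomes. They bring in ADP, phosphate, acylcarnitines and cofactors and let out ATP and metabolites, and so link the respiratory chain and the citric acid cycle to the cytosol. In heart muscle the ADP/ATP carrier and the phosphate carrier serve oxidative phosphorylation, and the acylcarnitine carrier serves fatty acid oxidation.

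The 6 one-colour arrays carried 2 different scan identifiers in their file headers, and arrays that share an identifier are called a slide here. Slide 1 held control replicates 1 to 3 and isoproterenol replicate 1, and slide 2 held isoproterenol replicates 2 and 3. The slides were inferred from these identifiers alone, and no slide label was used. Slide 2 was dimmer, with 61.3% and 70.9% of mRNA probes well above background, against 97.7% to 99.8% on slide 1. Each main result is therefore also given within slide 1, where the single isoproterenol array was assumed to vary like the controls. Of 7 cardiomyocyte marker genes tested, all were well above background on every array. Their summed signal, in multiples of the 75th percentile, was 1450 to 2420 on isoproterenol arrays and 1250 to 1410 on control arrays. The slide 1 isoproterenol array was at 1450, and those of slide 2 were at 2420 and 2270. Of these 7, Myh6, the alpha myosin heavy chain, rose (1.23 ± 0.23, limma adjusted p = 0.0182), with 0.82 within slide 1. Over 6 arrays 6 of the 7 changes were positive. Pln went the other way without passing (-0.82 ± 0.23, limma adjusted p = 0.0536) and was at -1.24 within slide 1. Tnni3 and Ryr2 were also negative within slide 1, at -0.30 and -0.52. Other cells were also represented. Over 6 arrays limma called 10.2% of all genes higher and 5.92% lower. Of 8 fibroblast markers 4 fell (summed signal 127 to 168 with isoproterenol, 152 to 161 in controls), and of 4 smooth muscle markers 2 rose and 1 fell (215 to 496 with isoproterenol, 82.8 to 148 in controls). In both lists the slide 1 isoproterenol array was the lowest of its group, at 127 and 215. Of 6 endothelial markers 1 fell (14 to 15.5 with isoproterenol, 14.9 to 16.7 in controls), and none of 3 macrophage markers passed (11.2 to 14.3 with isoproterenol, 8.94 to 15.8 in controls). Within slide 1 Tagln was at 1.03 and Acta2 at 1.16. A limma model with slide as a block called 1 cardiomyocyte marker (Pln, lower), 2 fibroblast, 0 smooth muscle, 1 endothelial and 0 macrophage markers. That model called 7.29% of all genes. Signals well above background on all arrays were found for 7 of the fibroblast, 3 of the smooth muscle, 4 of the endothelial and 2 of the macrophage markers, and the part of these cells in the results below was not tested.

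Levels below are log2 signals relative to the 75th percentile of the same array, so 0 is that percentile, and a change is isoproterenol minus control on the log2 scale given with its model SE (n = 3 arrays in each group). A gene is said to have risen or fallen where limma's moderated test, two-sided and adjusted by Benjamini-Hochberg over all 19942 genes, gave an adjusted p under 0.05. Of the 35 Slc25a genes 3 fell (Slc25a34, Slc25a42 and Slc25a20), 2 rose (Slc25a25 and Slc25a32) and 30 did not pass. The 5 genes called were 14.3% of the family, near the 16.1% called among all genes, so the count sets nothing apart about the family. By direction, 10.2% of all genes were called higher and 5.92% lower. The median change of the family was 0.14, against 0.07 over all genes, and within slide 1 the medians were 0.03 and 0.11. Within slide 1 alone 3 members were called (Slc25a34, Slc25a42 and Slc25a20), against 5.23% of all genes, and with slide as a block 5 were called (those 3, Slc25a25 and Slc25a4), against 7.29% of all genes. The groups did not overlap in 12 members, or 34.3%, against 41.4% of all genes. In RNA from whole cultures, fewer cells of a type and less of a transcript per cell cannot be told apart.

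**Figure D1:**
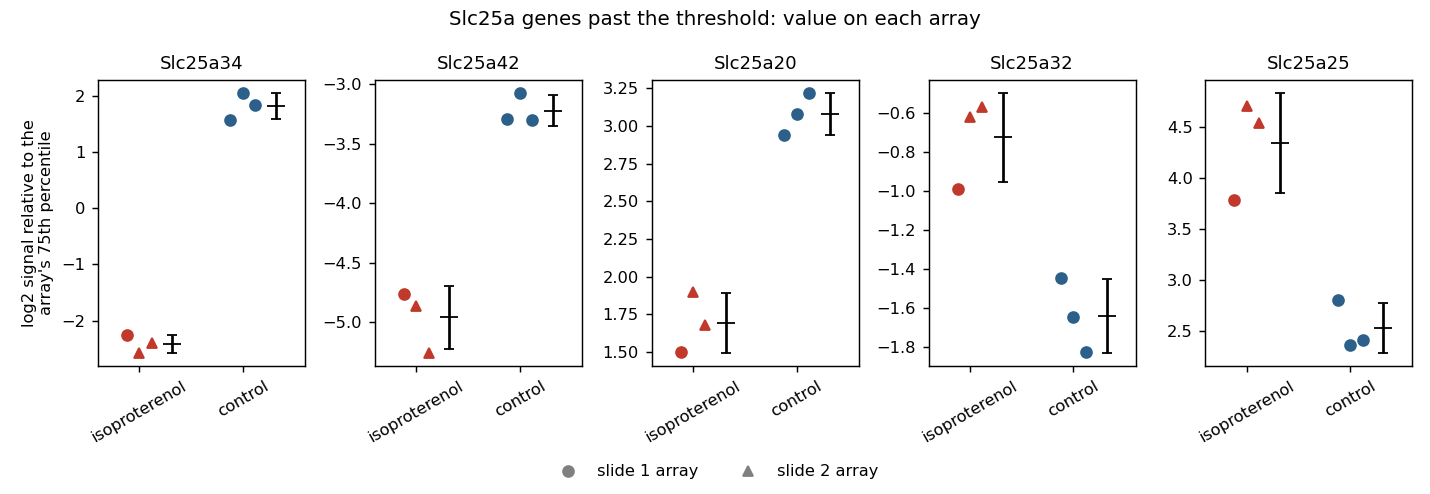
The log2 signal relative to each array's 75th percentile (vertical axis) is shown for the 5 Slc25a genes past the threshold, with isoproterenol arrays in red and control arrays in blue, circles for slide 1 and triangles for slide 2, and black bars for mean ± SD (n = 3). In each of these genes the isoproterenol arrays lie apart from the controls, and for Slc25a34 they lie near -2.4 against 1.6 to 2.1.

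Slc25a34, a carrier of unsettled substrate related to the yeast oxaloacetate carrier, had the largest change in the family. Its levels were -2.26, -2.58 and -2.40 on the isoproterenol arrays, against 1.58, 2.05 and 1.85 on the control arrays. The groups were far apart and each was tight, with means of -2.41 ± 0.16 and 1.83 ± 0.24 (SD, n = 3 each). Slc25a34 fell by 4.24 ± 0.19 on the log2 scale, or 18.9-fold (limma adjusted p = 0.00108). Slide 1 alone gave -4.08 (adjusted p = 0.0258). Its signal was well above background on 2 of 3 isoproterenol arrays and on all control arrays, and with the normexp setting, which uses another background correction on median signals with an offset of 50, the change was -3.26, or 9.6-fold. Slc25a35, its paralogue, was dim: its levels were -3.77, -4.65 and -4.94 with isoproterenol and -3.15, -3.66 and -3.44 in controls. That gene was well above background on 1 isoproterenol array and did not pass, at -1.04 ± 0.33 (limma adjusted p = 0.0727), with -0.35 within slide 1. It was at 0.31 under normexp, where the median change of all genes was 0.37.

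Slc25a25, one of the calcium-activated carriers that exchange ATP-Mg for phosphate and so set the adenine nucleotide content of the matrix, had the largest rise. It stood at 3.79, 4.71 and 4.54 on isoproterenol arrays, against 2.81, 2.37 and 2.41 on control arrays. Every isoproterenol array lay above every control, with the slide 1 isoproterenol array nearest to them. The rise was 1.82 ± 0.28, or 3.52-fold (limma adjusted p = 0.011). Within slide 1 it was 1.26 (adjusted p = 0.0561), and with slide as a block in the model, which uses the same contrast with another estimate of spread, 1.26 (adjusted p = 0.0387).

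The promoters of these genes are shown because they carry the largest fall and the largest rise of the family. Each is the 250 bases before the annotated start, 5′ to 3′, from RefSeq on build GRCr8, and capitals mark the motif matches. The Slc25a34 window is chr5:159219893-159220142 on the minus strand and the Slc25a25 window is chr3:36116582-36116831 on the minus strand.
Slc25a34: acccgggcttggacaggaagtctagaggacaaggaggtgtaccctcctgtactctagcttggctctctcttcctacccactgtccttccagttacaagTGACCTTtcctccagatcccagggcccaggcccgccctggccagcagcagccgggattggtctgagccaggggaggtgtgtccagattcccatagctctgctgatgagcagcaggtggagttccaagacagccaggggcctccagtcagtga
Slc25a25: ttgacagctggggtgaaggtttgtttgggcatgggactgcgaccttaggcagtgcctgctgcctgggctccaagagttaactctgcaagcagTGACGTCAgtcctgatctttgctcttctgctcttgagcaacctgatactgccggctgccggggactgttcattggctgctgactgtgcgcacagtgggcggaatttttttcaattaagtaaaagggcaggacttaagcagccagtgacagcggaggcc

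Both strands of each window were searched for 7 motifs. The full cAMP response element is TGACGTCA and contains its shorter form, TGACG. The core bound by many nuclear receptors is AGGTCA, and the longer form bound by estrogen-related receptors, AAGGTCA, contains it. The E-box is CACGTG, the core of amino acid response elements is TGATGNAA, and the palindromic core bound by NRF1 was searched as well. The Slc25a25 window holds TGACGTCA, which also counts as the shorter form, starting 158 bases before the gene's start. The full element was found in 1.59% of 33469 promoter windows and in 2 of the 30 members with a window, the other being Slc25a33. In the Slc25a34 window AAGGTCA stands on the opposite strand, 152 bases before the start. It was found in 3.99% of all windows and in no other member. The nuclear receptor core was in 14.1% of all windows and 5 members, the shorter cAMP form in 18.2% and 6 members, and the E-box in 5.59% and 3 members. The amino acid response core was in 3.4% and the NRF1 core in 0.762% of all windows, and both in 0 members. These are matches of letters and no binding was measured. Slc25a32 had no window in the table, and those of Slc25a20 and Slc25a42 held none of the 7 motifs.

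Carriers of acyl groups and coenzyme A included both other genes that fell. Slc25a20, the carnitine/acylcarnitine translocase that brings long-chain acylcarnitines into the matrix, had levels of 1.50, 1.90 and 1.68 with isoproterenol and 2.94, 3.08 and 3.22 in controls. No isoproterenol array reached a control array. Slc25a20 fell by 1.38 ± 0.18, or 2.61-fold (limma adjusted p = 0.00771), and was at -1.58 within slide 1 (adjusted p = 0.0325). Slc25a42, which imports coenzyme A in exchange for adenine nucleotides, stood at -4.76, -4.86 and -5.26 with isoproterenol, against -3.29, -3.07 and -3.30 in controls. It fell by 1.74 ± 0.20, or 3.33-fold (adjusted p = 0.0051), with -1.54 within slide 1 (adjusted p = 0.0325). These are dim signals: Slc25a42 was well above background on 1 isoproterenol array and on 3 control arrays. Under normexp its change was -0.04 (adjusted p = 0.899), so the fall was not seen in that setting.

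The enzymes before and after Slc25a20 on the carnitine route changed with it. Cpt1b, the muscle form of the outer-membrane enzyme that makes acylcarnitines, was at 0.15, -0.02 and 0.02 with isoproterenol and at 2.84, 2.56 and 2.72 in controls, a change of -2.66 ± 0.17 (limma adjusted p = 0.00149). Cpt1a, its liver form, changed by -2.21 ± 0.22, or 4.61-fold (adjusted p = 0.00371). It was well above background on 2 isoproterenol arrays, and under normexp the change was -1.31, or 2.48-fold. Cpt2, the matrix enzyme that releases acyl-CoA, changed by -1.17 ± 0.32 (adjusted p = 0.0492). Within slide 1 Cpt1b, Cpt1a and Cpt2 were at -2.56, -2.27 and -1.77, with adjusted p = 0.0258, 0.029 and 0.0539. Ucp2, a carrier of the same protein family that is named apart as an uncoupling protein, was at -0.88, -1.33 and -1.13 with isoproterenol and at 0.37, 0.44 and 0.57 in controls. It fell by 1.57 ± 0.18 (adjusted p = 0.00556, and -1.34 within slide 1). Ucp3 did not pass, at -0.02 ± 0.16 (adjusted p = 0.947). The other relatives of Slc25a20 among the members did not pass: Slc25a29, a carrier of basic amino acids, was at 0.16 ± 0.25, Slc25a45 at 0.27 ± 0.19 and the liver-enriched Slc25a47 at -0.40 ± 0.27. Within slide 1 these were at -0.11, 0.03 and 0.13, so the directions of Slc25a29 and Slc25a47 turned.

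**Figure D2:**
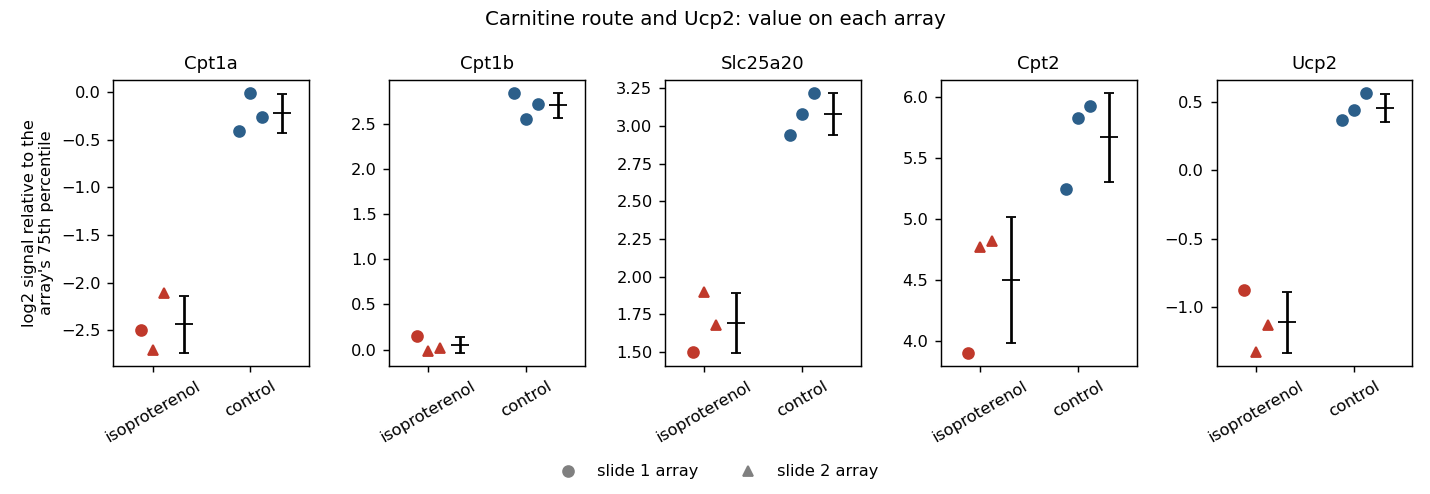
The log2 signal relative to each array's 75th percentile (vertical axis) is shown for Cpt1a, Cpt1b, Slc25a20, Cpt2 and Ucp2, isoproterenol in red and control in blue, circles for slide 1 and triangles for slide 2, black bars for mean ± SD (n = 3). In all 5 genes every isoproterenol array lies below every control array. For Cpt2 the slide 1 isoproterenol array, at 3.90, is the lowest.

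Cofactor and nucleotide carriers gave 1 rise beside the fall of Slc25a42. Slc25a32, which carries folate and FAD into the matrix, was at -0.99, -0.62 and -0.57 with isoproterenol, against -1.45, -1.65 and -1.83 in controls. The groups did not overlap, and the rise was 0.92 ± 0.20, or 1.89-fold (limma adjusted p = 0.0267). It was not past the threshold within slide 1, at 0.65 (adjusted p = 0.126), nor with slide as a block (adjusted p = 0.106). Shmt2, the matrix enzyme that feeds one-carbon units into the folate cycle, was at 4.92, 6.22 and 5.69 with isoproterenol and 3.95, 2.39 and 2.36 in controls, a rise of 2.71 ± 0.52 (adjusted p = 0.0182) that did not pass within slide 1, at 2.02 (adjusted p = 0.156). None of the other genes of this role passed, among them Slc25a17, the peroxisomal cofactor carrier, at 0.05 ± 0.18, Slc25a51, which brings NAD+ into the matrix, at 0.29 ± 0.26, Slc25a16 at 0.50 ± 0.24 and the pyrimidine nucleotide carrier Slc25a33 at 0.58 ± 0.33. Within slide 1 these 4 had the other sign, at -0.11 for Slc25a17, -0.24 for Slc25a51, -0.01 for Slc25a16 and -0.13 for Slc25a33.

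The carriers of oxidative phosphorylation did not pass in the comparison of 6 arrays, but their slide 1 values were lower. Slc25a4, the ADP/ATP carrier of heart and muscle, stood at 6.64, 7.76 and 7.49 with isoproterenol, against 7.49, 7.72 and 7.56 in controls. The slide 1 isoproterenol array lay below the controls, while those of slide 2 lay among or just above them. The change was -0.29 ± 0.30 (limma adjusted p = 0.503), but within slide 1 it was -0.95 (adjusted p = 0.0522), and with slide as a block adjusted p was 0.0459. With quantile normalization it was -0.86 (adjusted p = 0.0515) and in the same fit to the authors' deposited table -0.86 (adjusted p = 0.0479). Slc25a4 thus crossed the threshold or not depending on the processing. A pseudogene of it (1), and 2 of Slc25a3, are in the RefSeq table, and probe sequences were not used here, so signal shared with such copies was not tested.

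Slc25a3, the phosphate carrier, was the only member with more than 1 row. The gene makes alternative transcripts, and which exon each probe reads was not given in the sources used here. Row NM_001270788, the brighter, was at 4.76, 5.37 and 5.34 with isoproterenol and 5.32, 5.37 and 5.21 in controls. Row NM_139100 was at 1.17, 2.00 and 2.10 with isoproterenol and 0.73, 0.91 and 1.15 in controls. Fitted with every row as an item of its own, the first changed by -0.14 ± 0.22 (limma adjusted p = 0.653) and the second by 0.82 ± 0.29 (adjusted p = 0.0905), and within slide 1 by -0.54 and 0.24.

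The difference between the rows within each array does not depend on a constant scaling of arrays. It was 3.59, 3.37 and 3.24 on isoproterenol arrays, against 4.59, 4.46 and 4.06 on control arrays. The groups did not overlap, and the difference was smaller by 0.97 ± 0.21 in log2 units with isoproterenol, a change of -0.97. An exact two-sided permutation test gave p = 0.1, the smallest p that 3 arrays against 3 allow. In a limma fit over the 437 genes with at least 2 probes, adjusted p was 0.0763, and 14 genes, or 3.2%, passed. Within slide 1 the change was -0.78 (adjusted p = 0.282). This test was chosen after the values of the rows had been seen.

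**Figure D3:**
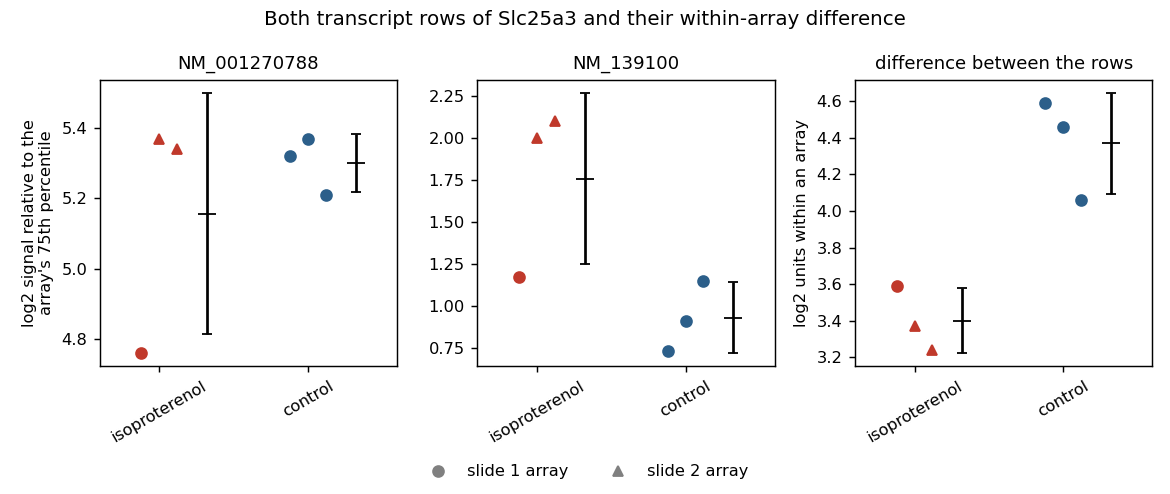
The first panels show the log2 signal relative to the array's 75th percentile for the rows NM_001270788 and NM_139100 of Slc25a3, and the last their difference within each array in log2 units, isoproterenol in red and control in blue, circles for slide 1, triangles for slide 2, black bars for mean ± SD (n = 3). The difference lies between 3.24 and 3.59 on isoproterenol arrays and between 4.06 and 4.59 on control arrays.

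Among the calcium-regulated ATP-Mg/phosphate carriers, both paralogues of Slc25a25 did not pass. Slc25a24 was at -2.23, -2.29 and -2.02 with isoproterenol and -2.49, -2.68 and -2.71 in controls, a change of 0.45 ± 0.17 (limma adjusted p = 0.108), and 0.40 within slide 1. Slc25a23 changed by -0.41 ± 0.23 (adjusted p = 0.239). Whether the response of Slc25a25 differs from theirs was not tested.

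The group of carriers of citrate, dicarboxylates and oxoglutarate, some of which serve the export of citrate and the malate shuttles, held 6 genes. Slc25a34, of unsettled substrate, and its paralogue Slc25a35 were counted among them. The median change of the group was -0.36, and -0.22 within slide 1. Slc25a11, the oxoglutarate/malate carrier, was at 3.05, 3.18 and 3.14 with isoproterenol and 3.64, 3.27 and 3.56 in controls. The groups did not overlap, but the change of -0.37 ± 0.17 did not pass (limma adjusted p = 0.177; -0.45 within slide 1). Slc25a1, the citrate carrier, was at -0.37, -0.57 and -0.33 with isoproterenol and -0.74, -0.84 and -0.78 in controls, likewise without overlap and without passing, at 0.36 ± 0.16 (adjusted p = 0.153; 0.42 within slide 1). The dicarboxylate carrier Slc25a10 changed by -0.35 ± 0.24 (adjusted p = 0.321) and was at 0.21 under normexp. Slc25a21, a carrier of oxodicarboxylates, was at -0.02 ± 0.24, with 0.41 within slide 1, and was well above background on 2 isoproterenol arrays.

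None of the 4 amino acid carriers with a row passed. Slc25a22, a glutamate carrier, was at -0.77, -0.71 and -0.49 with isoproterenol, just above the -0.79, -0.83 and -0.85 of controls, a change of 0.17 ± 0.16 (limma adjusted p = 0.476) that turned to -0.07 when arrays were scaled by detected probes only. The ornithine carriers Slc25a15 and Slc25a2 changed by 0.03 ± 0.16 and 0.56 ± 0.19 (adjusted p = 0.0874 for Slc25a2). Slc25a44, which imports branched-chain amino acids, changed by 0.63 ± 0.28 (adjusted p = 0.15) but by 0.04 within slide 1. Bcat2, the matrix enzyme that transaminates those amino acids, fell by 1.56 ± 0.17 (adjusted p = 0.00481; -1.43 within slide 1).

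No carrier of iron or glutathione passed. Slc25a37, mitoferrin 1, which brings iron into the matrix, had the widest spread among isoproterenol arrays of any member (SD 1.06) and was at 1.30, -0.69 and -0.30 with isoproterenol and at 0.51, 0.36 and 0.32 in controls. The slide 1 isoproterenol array lay above all controls and those of slide 2 below all controls, so the change of -0.29 ± 0.49 (limma adjusted p = 0.687) stands against 0.91 within slide 1 (adjusted p = 0.0519). Slc25a28, mitoferrin 2, was at 0.01 ± 0.18. Slc25a39, the glutathione carrier, changed by 0.70 ± 0.29 (adjusted p = 0.133) and by 0.08 within slide 1, and the RefSeq table holds 8 pseudogenes of it.

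The remaining members did not pass. The relatives of the uncoupling proteins were Slc25a14 at 0.26 ± 0.20, Slc25a27 at 0.45 ± 0.32 and Slc25a30 at -0.65 ± 0.35. Within slide 1 these were at 0.00, 0.65 and 0.05, so the direction of Slc25a30 turned. Slc25a27 was well above background on 1 isoproterenol array and 2 control arrays, and under quantile normalization its change was -0.84. Slc25a46, a protein of the outer membrane tied to mitochondrial shape, was at 4.68, 5.28 and 5.22 with isoproterenol and 4.53, 4.64 and 4.52 in controls, without overlap, at 0.50 ± 0.21 (limma adjusted p = 0.139) and 0.12 within slide 1. Slc25a53 and Slc25a54, without a settled substrate, changed by -0.11 ± 0.28 and 0.14 ± 0.19, and by 0.39 and 0.33 within slide 1.

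**Figure D4:**
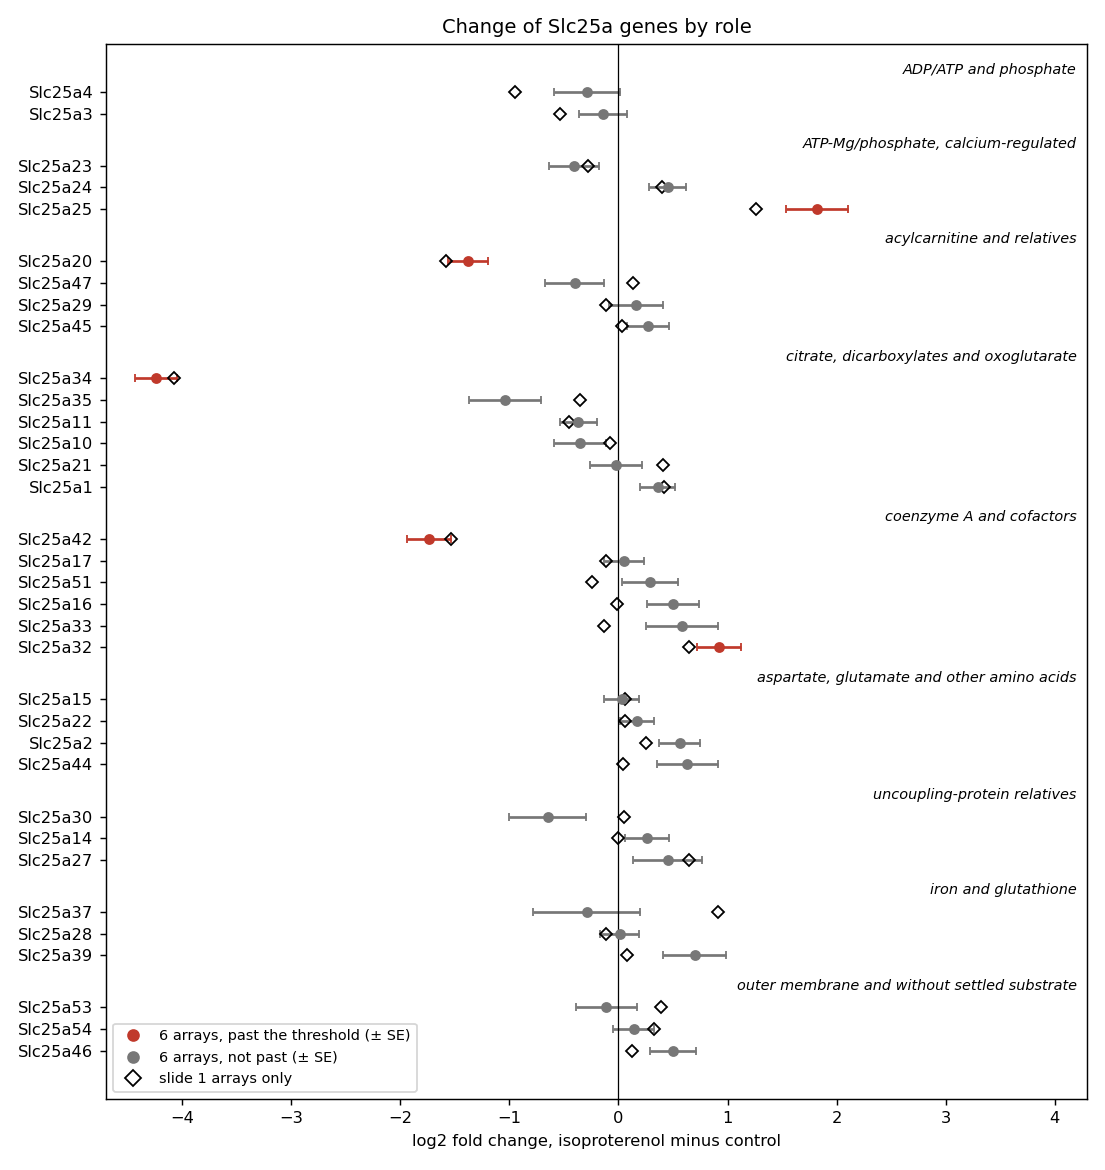
The log2 fold change, isoproterenol minus control (horizontal axis), is shown for Slc25a genes grouped by role, as circles with SE bars over 6 arrays (red where past the threshold, grey where not) and as open diamonds for the 4 slide 1 arrays. Slc25a34, Slc25a42 and Slc25a20 lie to the left on both measures and Slc25a25 to the right, while Slc25a37 shows the largest distance between circle and diamond, at -0.29 over 6 arrays and 0.91 within slide 1.

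The gap between isoproterenol arrays of both slides differed with brightness. Among the 18 members whose control mean lay above the 75th percentile, both slide 2 arrays exceeded isoproterenol replicate 1 in 15 and lay below it in 3, with a median difference of 0.49 (slide 2 minus slide 1). Among the 17 dimmer members these numbers were 5 and 8, with a median of -0.20. After quantile normalization the medians were 0.29 and -0.05. Treatment and slide cannot be told apart on slide 2, which holds no control.

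Other proteins of the inner and outer membranes that move solutes, taken from a fixed list, were mostly not called. Of 27 tested 4 rose and 2 fell, or 22.2% against 16.1% of all genes, and 1 passed within slide 1, where 5.23% of all genes did. The median change was 0.34, and -0.04 within slide 1. Beside Ucp2, the serine transporter Sfxn1 rose by 1.41 ± 0.29 (limma adjusted p = 0.0226), the porphyrin-linked transporter Abcb6 by 0.86 ± 0.16 (adjusted p = 0.018), Letm1, a cation exchanger, by 0.89 ± 0.21 (adjusted p = 0.0318) and Micu3, a regulator of the calcium uniporter, by 0.90 ± 0.24 (adjusted p = 0.0462). Of the genes named here, Ucp2 alone passed within slide 1. The pyruvate carrier subunits Mpc1 and Mpc2 were at 0.63 ± 0.31 (adjusted p = 0.183) and 0.31 ± 0.28 (adjusted p = 0.436), and within slide 1 at -0.04 and -0.30. Mcu, the uniporter pore, was at 0.41 ± 0.22 (adjusted p = 0.221).

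Of 12 genes of the machinery that inserts carriers into the inner membrane, 0 passed in limma's test. In that test 6 had an unadjusted p under 0.05 (Timm8a1, Timm9, Timm13, Timm22, Tomm22 and Tomm40), as did 35.9% of all genes. Changes ran from -1.29 for Tomm22 to 0.72 for Tomm40 with a median of 0.19. Within slide 1 Tomm22 was at -0.18 and Tomm40 at 0.47, and the median of the list was 0.07. Partner enzymes, which make or use what the carriers move, had 1 rise (Shmt2) and 5 falls (Cpt1b, Cpt1a, Bcat2, Cpt2 and Got2) among 26 tested. That is 23.1%, against 16.1% of all genes (10.2% higher and 5.92% lower). With slide as a block 7 of the 26 passed, against 7.29% of all genes, and these were not the same genes. They were Cpt1b, Cpt1a, Bcat2, Cpt2, Crat, Ckmt2 and Idh2, all lower, while Got2 and Shmt2 did not pass. Over 6 arrays Crat, Ckmt2 and Idh2 had not passed, at -0.73 ± 0.21, -0.80 ± 0.35 and -0.28 ± 0.34. Within slide 1 Crat was at -1.09, Ckmt2 at -1.55 and Idh2 at -1.02. Got2, the mitochondrial aspartate aminotransferase of the malate-aspartate shuttle, was at 1.52, 1.55 and 1.49 with isoproterenol and 2.20, 2.08 and 2.14 in controls, a fall of 0.62 ± 0.15 (limma adjusted p = 0.0378; -0.62 within slide 1, adjusted p = 0.0787).

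**Figure D5:**
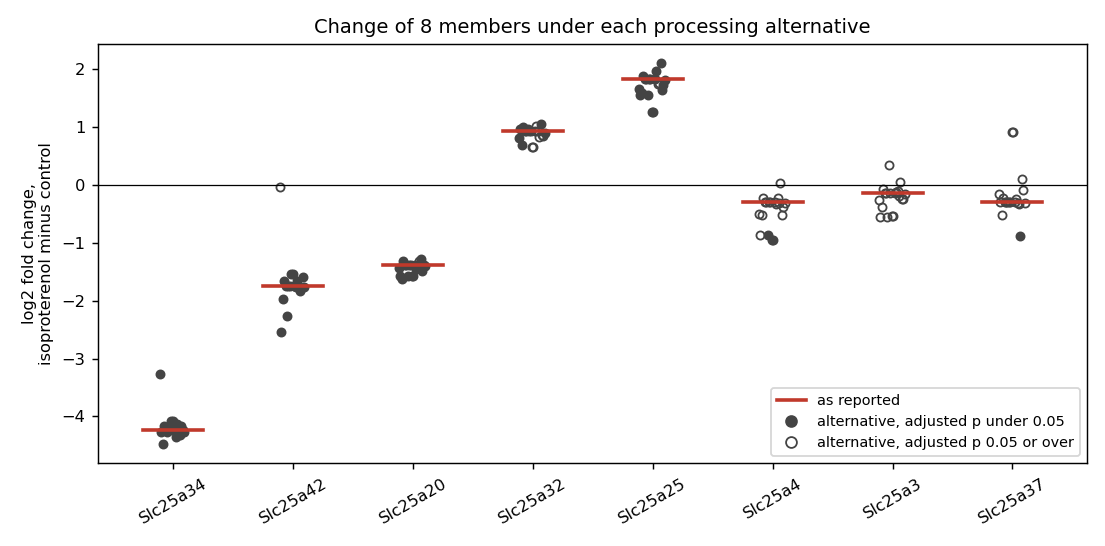
The log2 fold change, isoproterenol minus control (vertical axis), is shown for 8 members under each processing alternative, as points that are filled where the adjusted p was under 0.05, with the value as reported as a red line. Slc25a34, Slc25a20, Slc25a32 and Slc25a25 stay on 1 side of 0, Slc25a42 has 1 point near 0 (normexp, -0.04), and Slc25a4, Slc25a3 and Slc25a37 have points on both sides.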

How the data were processed

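RNA from 6 cultures was hybridised to 6 one-colour (Cy3) arrays. Per the file headers, Agilent Feature Extraction 11.0.1.1 produced the scanner files. Their deposited intensity values are linear and already corrected for background, with 43040 spots an array and none saturated. The authors also deposited an mRNA table of normalized log2 values; its column names state no method, and its values lay close to quantile-normalized log2 signals averaged by probe (95th percentile of the absolute difference at most 0.00061 on slide 1; on slide 2 it was 0.467 and 0.242 over all probes and at most 0.00017 for those well above background). The scanner files name probes by design number only, so rows were matched to probes by their values on the 4 slide 1 arrays (distance under 0.05 and under 0.25 of that to the next probe); 20639 of 20734 rows were matched, all members among them, and all 20638 neighbouring pairs followed spot order. Gene symbols came from NCBI's GRCr8 annotation, matched by transcript accession for 13956 of 14757 RefSeq rows; the headers name an older build. The lncRNA table was not used.

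Log2 processed signals were averaged by probe without outlier spots and each array was centred on the 75th percentile of its non-control probes, which lay at a signal of 546.7 to 599.2 on slide 1, with 207.0 and 249.1 on slide 2. A probe well above background on at least 3 of 6 arrays was tested, which all matched rows were. Each gene was represented by its brightest probe. Isoproterenol was compared with control by lmFit and eBayes in limma 3.58.1 (R 4.3.3) on all 19942 genes with Benjamini-Hochberg adjustment at 0.05. The fit was also run on simulated arrays, which had no slide effect and no dimmer slide. That run therefore cannot show how the fit deals with the slides of these data. The number of arrays limits the precision. The scanner files hold no mean signal, so the normexp alternative (offset 50) used median signals. The genes named are all members, plus up to 6 called genes and a few set ones of each list. A few more are named for an unadjusted p, as cell type markers, or for a result within slide 1 or with slide as a block. Members and lists were chosen with earlier results of these data known. Same-numbered replicates did not deviate together (correlations 0.01, 0.05 and -0.02), so numbers were not treated as pairs. Values of some members and list genes are not reported here, though the counts include them.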

Additional observations from a re-analysis of the deposited data

How the results depend on the processing

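Of 658 member values under the alternatives, 569 kept their direction and their side of the threshold. Another 15 newly passed, 12 of these on leaving out isoproterenol replicate 1, after which no slide holds both groups. A further 13 no longer passed, and 61, none of them called, changed sign. Some alternatives could not turn the direction of most or all members. Lifting the filter on dim probes changed nothing, because all matched rows passed it. Averaging a gene's probes could alter the log2 change of Slc25a3 only, the member with more than 1 row. The eBayes fit with an intensity trend, the replicate block and detection on all arrays left every tested member's log2 change as given. There only the side of the threshold could differ. Slc25a34 passed under every alternative that tested it, from -4.48 to -3.26, and Slc25a20 under all but leaving out control replicate 3 (-1.31, adjusted p = 0.0557). Slc25a25 (1.26 to 2.10) did not pass in slide 1 alone or without control replicate 2 (1.74, adjusted p = 0.0606) or control replicate 3 (1.75, adjusted p = 0.0626), Slc25a42 under normexp, and Slc25a32 (0.65 to 1.05) under 8 alternatives, with adjusted p up to 0.131. The cause was not tested.

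The number of Slc25a genes called was 5 as given, 3 in slide 1 alone and 2 to 17 on leaving out 1 array, the 17 without isoproterenol replicate 1. Those higher were 2 as given, 1 with slide as a block, 1 with the replicate block and 0 to 10 on leaving out 1 array (0 without control replicate 2 or 3). Those lower were 3 as given, 1 where detection on all 6 arrays was required, which leaves 28 members and drops Slc25a34 and Slc25a42, and 2 to 7 on leaving out 1 array. Over all genes 3207 were called as given, 1454 with slide as a block (7.29%), 1043 in slide 1 alone (5.23%), 1452 with the replicate block and 369 (without control replicate 3) to 10396 (without isoproterenol replicate 1) on leaving out 1 array. In the lists of other transporters, import machinery and partner enzymes 12 genes were called as given, 6 in slide 1 alone, 5 with the replicate block and 4 to 40 on leaving out 1 array. The change of the difference between the Slc25a3 rows passed under normexp (-1.0, adjusted p = 0.0227) and without isoproterenol replicate 1 (-1.06, adjusted p = 0.0185), and ranged from -1.13 to -0.86 on leaving out 1 array. The median change of all genes was 0.07 as given, 0.37 under normexp, -0.08 under quantile normalization and -0.17 when the percentile was taken over detected probes only. The share of calls that were higher was 63.2%, 73.8%, 55.9% and 41% in that order, 72.5% where detection on all 6 arrays was required, 50.1% with slide as a block and 47.8% in slide 1 alone. The percentile over spots and the fit with every row an item were added after seeing the data. Signals of Slc25a34, Slc25a35, Slc25a42, Slc25a45, Slc25a27, Slc25a21 and Slc25a54 were not well above background on all isoproterenol arrays.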
